A study of Zea mays with 6 samples.

Results

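The genes described are 4 of the 39625 gene models in a table of transcript levels from mature maize pollen: gpi (GRMZM6G477257), ald1 (GRMZM2G057823), eno1 (GRMZM2G064302) and PDC (GRMZM2G087186). They were taken by identifier as genes of glycolysis and fermentation whose levels had been found higher after heat in these same libraries. Their difference between heat and control is therefore described without a test, and only other genes are tested. RNA was sequenced from pollen of the inbred line B73 in 2 groups of 3 libraries. In the heat group, plants whose pollen was at the tetrad stage, when the microspores formed by meiosis are still joined, were held for 48 h at a day temperature of 35 °C and a night temperature of 25 °C. In the control group, day and night temperatures were 25 °C and 21 °C. Both groups had 60% humidity and returned to the greenhouse until the pollen had matured, so heat and sampling were separated by pollen development. The labels speak of biological replicates without saying how many plants gave each one, and p-values measure only the spread between these libraries.

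Glycolysis turns hexose phosphates into pyruvate in the cytosol and yields ATP. Phosphoglucose isomerase converts glucose 6-phosphate and fructose 6-phosphate into each other. Aldolase splits fructose 1,6-bisphosphate into triose phosphates. Enolase makes phosphoenolpyruvate in a late step of the pathway. Pyruvate decarboxylase then takes pyruvate to acetaldehyde, which alcohol dehydrogenase reduces to ethanol or aldehyde dehydrogenase oxidises to acetate. Pollen is known for running this fermentative branch even where oxygen is present, and the growing pollen tube has a high demand for energy and wall precursors.

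Levels are given in TPM, which corrects read numbers for gene length and brings every library to the same total, so levels of different genes can be compared. Whole read numbers could be recovered from the values, and totals ran from 19086616 to 19745003 reads in heat libraries and from 20978451 to 28640667 reads in control libraries. Heat replicates 1 and 2 were run on 2 lanes of the flow cell, and heat replicate 3 shared 3 other lanes with all controls. A fit with the lane as a covariate therefore takes each difference from heat replicate 3 against the controls alone. Of 7 pollen marker genes 6 reached 1 TPM in a library, and their summed level was 38295 to 41040.2 TPM in heat and 37913 to 39886 TPM in control pollen. The most abundant of them was mgs1, at 18441 ± 568 TPM in heat and 18389 ± 290.3 TPM in control pollen (SD, n = 3 each; limma adjusted p = 0.968). The members moved in both directions: the profilin genes prf1 (log2 difference 0.33, limma adjusted p = 0.0132) and prf3 (0.32, 0.00233) were higher after heat, and pme1 (-0.25, 0.00484) was lower. Of 23 genes matching leaf names 8 were at 0 in every library, and the list summed to 136 to 156 TPM in heat and 141 to 158 TPM in control pollen. Nearly all of that came from GRMZM2G107196 (PDK1 and pdlk1), GRMZM2G097821 (PDK1) and psat1. Leaving these out was decided after the values were seen. The remaining 20 genes summed to 1.46 to 2.07 TPM in heat and 1.61 to 2.64 TPM in control pollen. Of 5 genes matching anther wall names 1, mtl2, was at 0 throughout. The others carried ms names, and each had reads in some library. The list summed to 4.02 to 4.49 TPM in heat and 2.66 to 3.38 TPM in control pollen. Of the members that reached 1 TPM, ms32 rose, with 3.17 ± 0.111 TPM in heat and 1.62 ± 0.222 TPM in control pollen (SD, n = 3 each; limma adjusted p = 0.00210), while ms26 had 0.886 ± 0.262 TPM in heat and 1.25 ± 0.0572 TPM in control pollen, also without overlap (limma adjusted p = 0.197). These marker genes were named after their values were seen. The part of these other cell types in the results was not tested. In bulk samples of this kind, a change in the number of grains or in the RNA of each grain type cannot be told apart.

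Each of the 4 genes was higher in all heat libraries than in any control library. Of the 8615 genes tested in the whole table, 23.2% had heat libraries that lay above the controls without overlap, and limma called 13% higher after heat at an adjusted p below 0.05. Since the genes were chosen on this contrast, their own places in it are no finding. The means over the groups differed by 1.56-fold for eno1, 1.40-fold for ald1, 1.27-fold for gpi and 1.26-fold for PDC. Among all tested genes, 4.35% had a larger log2 difference than eno1, 7.03% than ald1, 13.8% than gpi and 15.9% than PDC.

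The isomerase gene gpi had 119, 124 and 101 TPM in heat replicates 1, 2 and 3, against 86.6, 86.5 and 97.5 TPM in control replicates 1, 2 and 3. The groups did not overlap, but heat replicate 3 lay only just above control replicate 3, which was the highest control. The mean was 114 ± 12.1 TPM in heat and 90.2 ± 6.30 TPM in control pollen (SD, n = 3 each), with a difference of 0.34 on the log2(TPM + 1) scale (SE 0.09). Between 1258 and 1597 reads lay behind each of these values.

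The gpi gene is described by more than 1 gene model in the deposited table. The RefSeq gene list gives GRMZM6G477257 and GRMZM2G065083 as names of a single gene, also called phi1. The recovered lengths of the models were 1040 and 900 bases. The second model had 168, 179 and 180.1 TPM in heat replicates 1, 2 and 3, against 161, 138 and 157 TPM in control replicates 1, 2 and 3. It was the more abundant model in all libraries, and heat replicate 3, the lowest heat library for the first model, was the highest for the second. Its log2 difference was 0.21 (SE 0.08, limma adjusted p = 0.0661, 0.0478 to 0.817 over the alternatives), and it did not pass the threshold. The difference between the 2 models' values was not tested.

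The level of the first gpi model divided by that of the second was 0.705, 0.690 and 0.559 in heat replicates 1, 2 and 3, against 0.537, 0.628 and 0.622 in control replicates 1, 2 and 3. Heat replicates 1 and 2, which shared lanes, had the highest ratios, and heat replicate 3 lay within the range of the controls. With the reads of both models joined over their summed length of 1940 bases, the gene had 142, 149 and 138 TPM in heat replicates 1, 2 and 3. The joined level was 121, 110.3 and 125 TPM in control replicates 1, 2 and 3. The joined groups did not overlap, and the joined mean was 143 ± 6.04 TPM in heat and 119 ± 7.62 TPM in control pollen (SD, n = 3 each), a log2 difference of 0.26. Joining the models was decided after the values were seen.

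**Figure D1:**
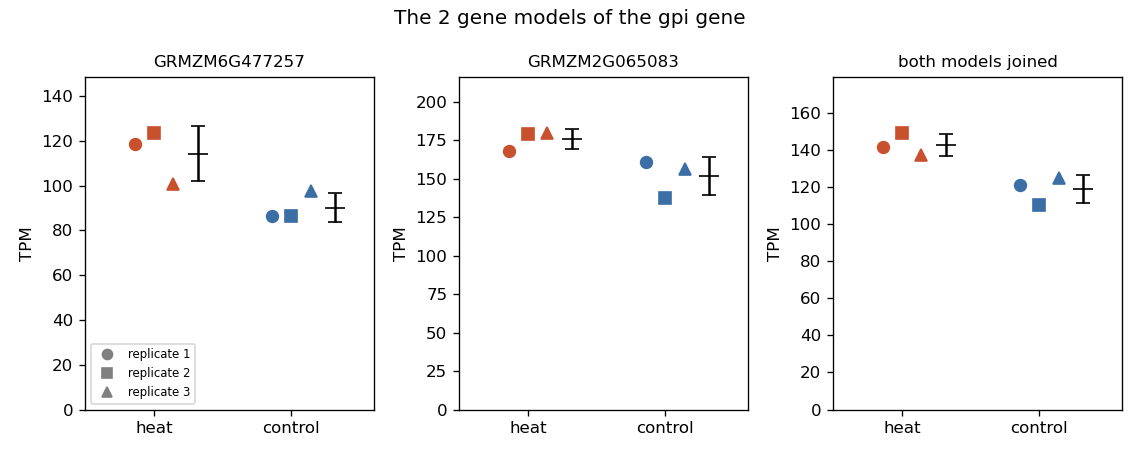
TPM of the 2 gene models that RefSeq gives for the gpi gene, and of both joined, in the heat and control libraries (symbols mark the replicate; the black bar is mean ± SD, n = 3). Heat replicate 3 is the lowest heat library for GRMZM6G477257, at 101 TPM, and the highest for GRMZM2G065083, at 180.1 TPM.

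The aldolase gene ald1 was the most abundant of the 4 in all libraries, with 490.0, 512 and 488 TPM in heat replicates 1, 2 and 3, against 371, 343 and 349.6 TPM in control replicates 1, 2 and 3. The lowest heat library exceeded the highest control by far more than the spread within either group. The mean was 497 ± 13.6 TPM in heat and 355 ± 14.4 TPM in control pollen (SD, n = 3 each), a log2 difference of 0.49 (SE 0.06). It ranked between 345 and 356 by level among all gene models in heat libraries and between 416 and 430 in control libraries. With 7625 to 11154 reads in a library, its counting error was about 1%: 1.15% in the shallowest library for this gene and 0.947% in the deepest. The coefficient of variation was 2.74% over heat and 4.07% over control libraries.

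The enolase gene eno1 showed the largest difference of the 4 and also the largest spread. It had 89.1, 136 and 110.5 TPM in heat replicates 1, 2 and 3, against 76.5, 70.5 and 68.8 TPM in control replicates 1, 2 and 3. The heat libraries lay above all controls but were far apart from each other, at 1.24, 1.90 and 1.54 times the control mean. The mean was 112 ± 23.7 TPM in heat and 71.9 ± 4.03 TPM in control pollen (SD, n = 3 each), a log2 difference of 0.61 (SE 0.12).

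The spread of eno1 over heat libraries, a coefficient of variation of 21.2%, was exceeded by 1.87% of the 642 tested genes within 2-fold of its level, which had a median of 6.46%. Over control libraries its coefficient was 5.60%, near the median of 5.92% for those genes. Counting error, 1.69% to 2.30% for 1883 to 3517 reads, was well below the spread in heat. For gpi the coefficient was 10.6% over heat and 6.98% over control libraries, and 17.0% of 587 genes of like level exceeded it in heat.

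The decarboxylase gene PDC, also named pdc3, was the least abundant of the 4. It had 14.2, 13.1 and 12.4 TPM in heat replicates 1, 2 and 3, against 10.6, 9.85 and 11.1 TPM in control replicates 1, 2 and 3. Heat replicate 3 was the nearest to the controls, and the groups did not overlap. The mean was 13.2 ± 0.937 TPM in heat and 10.5 ± 0.637 TPM in control pollen (SD, n = 3 each), a log2 difference of 0.30 (SE 0.10). A library held 358 to 472 reads of this gene, which gives a counting error of 4.60% to 5.29% against coefficients of variation of 7.07% in heat and 6.05% in control pollen.

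**Figure D2:**
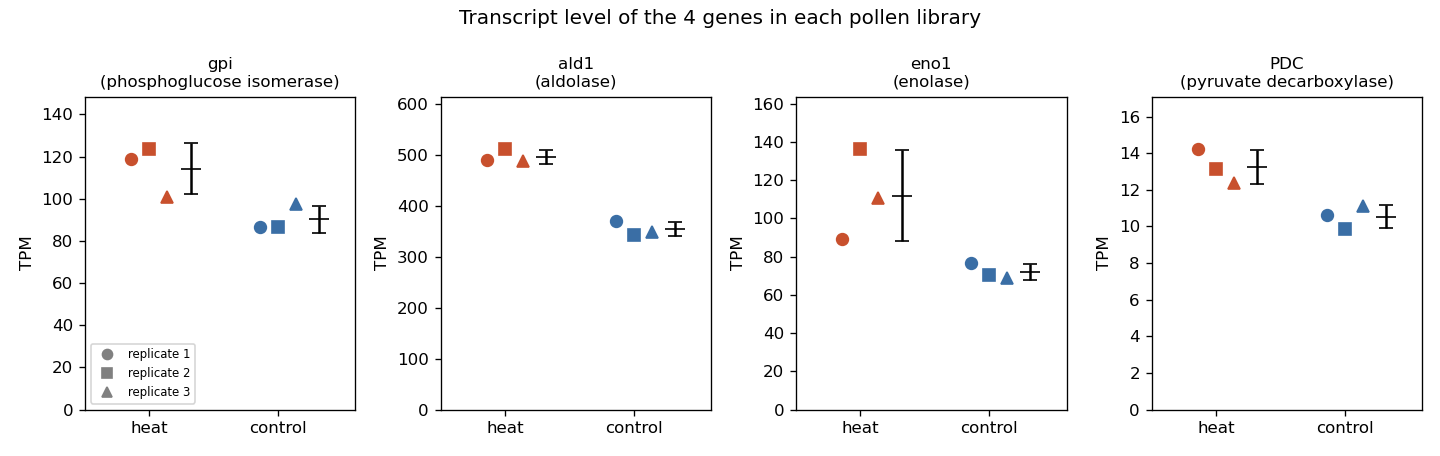
TPM of gpi, ald1, eno1 and PDC in each library, heat left of control (symbols mark the replicate; the black bar is mean ± SD, n = 3; each axis starts at 0). All heat values lie above all control values, most widely for ald1, with gpi heat replicate 3 at 101 TPM just above the highest control at 97.5 TPM.

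The heat libraries did not rank alike for the 4 genes. Heat replicate 2 was the highest for gpi, ald1 and eno1, at 1.37, 1.44 and 1.90 times the control mean. Heat replicate 1 was the highest for PDC, at 1.35 times the control mean, and the lowest for eno1. Heat replicate 3 was at 1.12 times the control mean for gpi, 1.37 for ald1, 1.54 for eno1 and 1.18 for PDC. Among the 27 other tested genes of the pathway lists described below, heat replicate 2 was the highest heat library for 16 (59.3%), compared with 41.5% of all tested genes.

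**Figure D3:**
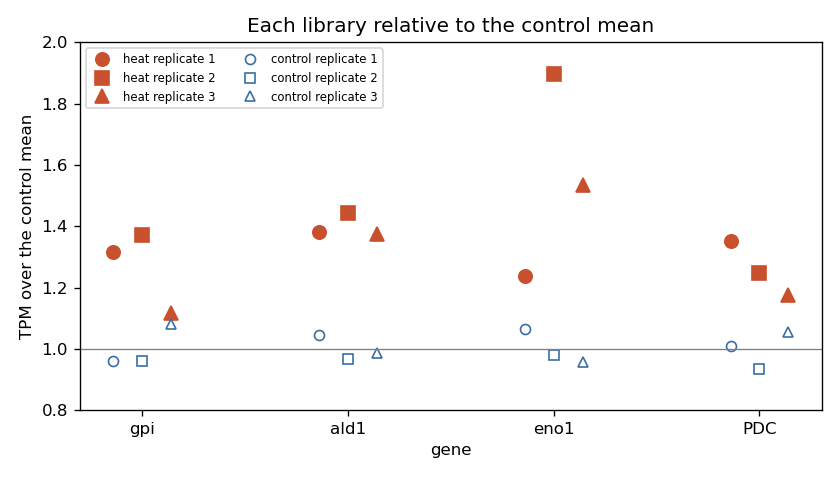
TPM of each library divided by the mean of the control libraries, for gpi, ald1, eno1 and PDC (filled symbols, heat; open symbols, control; the grey line marks the control mean). The eno1 heat libraries spread from 1.24 to 1.90, while those of ald1 lie between 1.37 and 1.44.

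The order of the levels was the same at both ends in all libraries, with ald1 first and PDC last. The level of ald1 was 3.75 to 5.50 times that of eno1 in heat and 4.85 to 5.08 times in control libraries. In the middle of the order gpi and eno1 were close: gpi was above eno1 in heat replicate 1, at 1.33 times its level, and below it in heat replicates 2 and 3, at 0.906 and 0.911 times. In control replicates 1, 2 and 3 gpi was at 1.13, 1.23 and 1.42 times the level of eno1. In heat pollen these neighbours did not differ beyond their spread, with means of 114 and 112 TPM. The level of eno1 was 6.25, 10.4 and 8.92 times that of PDC in heat replicates 1, 2 and 3, against 7.20, 7.16 and 6.19 times in control replicates 1, 2 and 3, and the groups overlapped.

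The 4 genes together made up 712, 786 and 711 TPM in heat replicates 1, 2 and 3, against 545, 510.2 and 527 TPM in control replicates 1, 2 and 3. They held between 65.6% and 66.6% of the summed TPM of 36 gene models with glycolysis or fermentation names in heat and between 60.5% and 62.1% in control pollen. Since the 4 were chosen for being higher after heat, their larger sum and share there come with that choice and are no finding. The other 32 models summed to 357 to 394 TPM in heat and 312 to 350.3 TPM in control pollen. The most abundant of them was the second gpi model, with a mean of 176 TPM in heat and 152 TPM in control pollen. The gpi gene is thus counted on both sides of these shares.

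Of the 2 models matched by name for each enzyme, eno1 and PDC were the more abundant. Models without a name could not be counted. Since eno1 and PDC were chosen for being higher after heat, a larger share in heat comes with that choice and is no finding. The other named enolase gene, eno2 (GRMZM2G048371), had 5.91 ± 0.744 TPM in heat and 5.11 ± 0.539 TPM in control pollen (SD, n = 3 each), with limma adjusted p = 0.363. The share of eno1 in the summed level of the named enolase models was 94.2% to 95.3% in heat and 93.0% to 93.6% in control libraries. The other decarboxylase gene matched by name, pdc2 (GRMZM2G038821), lay below the level required for testing, with 6 to 9 reads in heat and 8 to 17 reads in control libraries. The share of PDC in the summed level of the named decarboxylase models was 97.4% to 98.5% in heat and 95.6% to 97.6% in control libraries, which overlapped. The handling of reads with several matching places is not stated by the labels, so near-identical copies may share reads.

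Other genes of the pathway were taken from 6 lists of names, which matched 61 gene models including the 4. Only named models could match, and 9.47% of tested genes had a name. No model matched the names sought for triose phosphate isomerase, phosphoglycerate kinase or phosphoglycerate mutase, so the lists do not cover the whole pathway. Of the other 57 models 27 were tested, of which limma called 2 higher (7.41%) and 1 lower (3.70%) after heat, where 13% and 7.15% of all tested genes were called. Without control replicate 1 or 3, without heat replicate 2 or with the lane as a covariate limma called 0 higher and 0 lower. It called 1 higher without control replicate 2 or heat replicate 3 and 4 without heat replicate 1. Over all tested genes the call counts were 1123 higher and 616 lower as deposited, 937 and 786 after scaling by median ratios and 871 and 953 after quantile normalization. The 4 gene models picked out for being higher are not among the 27, which lowers the share called higher. The second gpi model (0.21, not called) is among the 27, though RefSeq gives it as the same gene as gpi. The median log2 difference of the 27 was 0.10, against 0.04 for all tested genes, and 17 lay above 0 and 10 below. Some patterns caught names of other functions, such as csy1, which is also named SECY.

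At the entry to glycolysis, hex2 (GRMZM2G432801), a hexokinase gene, fell. It had 35.8, 27.0 and 27.5 TPM in heat replicates 1, 2 and 3, against 41.8, 33.3 and 42.1 TPM in control replicates 1, 2 and 3, and the groups overlapped. The log2 difference was -0.37 (SE 0.12, limma adjusted p = 0.0495, 0.00613 to 0.171 over the alternatives). The call was lost without control replicate 1 (0.171) or 3 (0.170), without heat replicate 2 (0.160) or 3 (0.163) and under 4 further alternatives, among them the lane as a covariate (-0.48, SE 0.18, 0.131). The phosphofructokinase gene pfk1 (GRMZM2G021846), added after its values were seen, had 5.59 ± 0.890 TPM in heat and 4.75 ± 0.729 TPM in control pollen (SD, n = 3 each; limma adjusted p = 0.362).

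In lower glycolysis limma called 0 of 6 tested genes other than eno1; 2 had an unadjusted p below 0.05, and limma-voom called 1 of these 2. Both are genes for cytosolic glyceraldehyde 3-phosphate dehydrogenase, which acts between aldolase and enolase. The more abundant, gpc4 (GRMZM2G176307), had 64.0, 76.1 and 69.4 TPM in heat replicates 1, 2 and 3, against 61.5, 56.8 and 57.7 TPM in control replicates 1, 2 and 3. Its groups did not overlap, its log2 difference was 0.24 (SE 0.08), and it missed the threshold (limma adjusted p = 0.0549, 0.0237 to 0.362 over the alternatives). For gpc3 (GRMZM2G071630) the values were 49.0 ± 8.47 TPM in heat and 39.8 ± 1.94 TPM in control pollen (SD, n = 3 each; limma adjusted p = 0.0954, 0.0118 to 0.400 over the alternatives). Without heat replicate 1 both were called, gpc4 at 0.31 (limma adjusted p = 0.0237) and gpc3 at 0.40 (0.0118). The removal of any other library left both uncalled. Without heat replicate 2 gpc4 was at 0.18 (limma adjusted p = 0.186) and gpc3 at 0.16 (0.323).

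In fermentation and aldehyde oxidation 1 of 6 tested genes other than PDC was called. LDH (GRMZM2G128929), for lactate dehydrogenase, rose, with 3.44, 4.38 and 3.36 TPM in heat replicates 1, 2 and 3, against 2.64, 2.41 and 2.41 TPM in control replicates 1, 2 and 3. The groups did not overlap, on 49 to 84 reads in a library, and the log2 difference was 0.43 (SE 0.13, limma adjusted p = 0.0293, 0.0237 to 0.338 over the alternatives). Its call was lost without any of the 3 controls (0.0655, 0.0686 and 0.0880), without heat replicate 2 (0.118), with no filter (0.0766) and with the lane as a covariate (0.32, SE 0.18, 0.338). The gene for alcohol dehydrogenase, adh1 (GRMZM2G442658), had 6.44 ± 0.480 TPM in heat and 5.30 ± 0.117 TPM in control pollen (SD, n = 3 each; log2 difference 0.24, limma adjusted p = 0.149). The aldehyde dehydrogenase gene ALDH7 (GRMZM2G130440) had 3.25 ± 0.291 TPM in heat and 3.46 ± 0.630 TPM in control pollen (limma adjusted p = 0.793).

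The pyruvate dehydrogenase complex takes pyruvate into the mitochondrial citric acid cycle. The list for the complex and the cycle also held pgd2 (GRMZM2G127798, also named pdh2), which is in the pentose phosphate list too. Its tested genes further included csy1, also named SECY, and the alternative oxidase gene Aox (GRMZM2G125669). Of 9 tested genes in that list 1 was called: PDHE1-B (GRMZM2G043198), for a subunit of the complex, rose, with 2.97 ± 0.204 TPM in heat and 1.94 ± 0.436 TPM in control pollen (SD, n = 3 each; log2 difference 0.44, SE 0.14, limma adjusted p = 0.0370, 0.0154 to 0.208 over the alternatives). Of 16 alternatives 9 ended that call, among them the removal of control replicate 1 (0.115) or 3 (0.149) or of heat replicate 2 (0.105) or 3 (0.0956), and the lane as a covariate (0.208). The malate dehydrogenase gene mdh2 (GRMZM2G154595) had 8.93 ± 0.747 TPM in heat and 7.56 ± 0.462 TPM in control pollen (limma adjusted p = 0.190), and pdh1 (GRMZM2G361693) had 2.83 ± 0.277 TPM in heat and 2.92 ± 0.186 TPM in control pollen (limma adjusted p = 0.881).

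Limma called 0 of 3 tested genes in the list of the phosphoenolpyruvate branch and 0 of 1 in that of the pentose phosphate pathway. In both lists 0 had an unadjusted p below 0.05 and limma-voom called 0. The tested matches of the branch list were me2 (GRMZM2G122479), GRMZM2G107196 and GRMZM2G097821. The last pair is named PDK1, which by itself does not place them in this branch, so the count barely covers it. The most abundant match of the branch list was GRMZM2G107196, named PDK1 and pdlk1, names used in maize for pyruvate dehydrogenase kinase, which restrains that complex. It had 127 ± 8.81 TPM in heat and 132 ± 7.58 TPM in control pollen (SD, n = 3 each; limma adjusted p = 0.600, 0.0172 to 0.917 over the alternatives, the lowest after quantile normalization). Another model named PDK1 (GRMZM2G097821) had 12.5 ± 1.55 TPM in heat and 12.5 ± 0.823 TPM in control pollen (limma adjusted p = 0.989). The name pdk1 also went to GRMZM2G306345, named PPDK as well, which lay below the level required for testing. The name PDK1 alone therefore does not settle which enzyme a model encodes. The pentose phosphate gene pgd2 (GRMZM2G127798) had 2.11 ± 0.516 TPM in heat and 2.46 ± 0.168 TPM in control pollen (limma adjusted p = 0.460), and pgd3 (GRMZM2G440208) lay below the level required for testing.

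**Figure D4:**
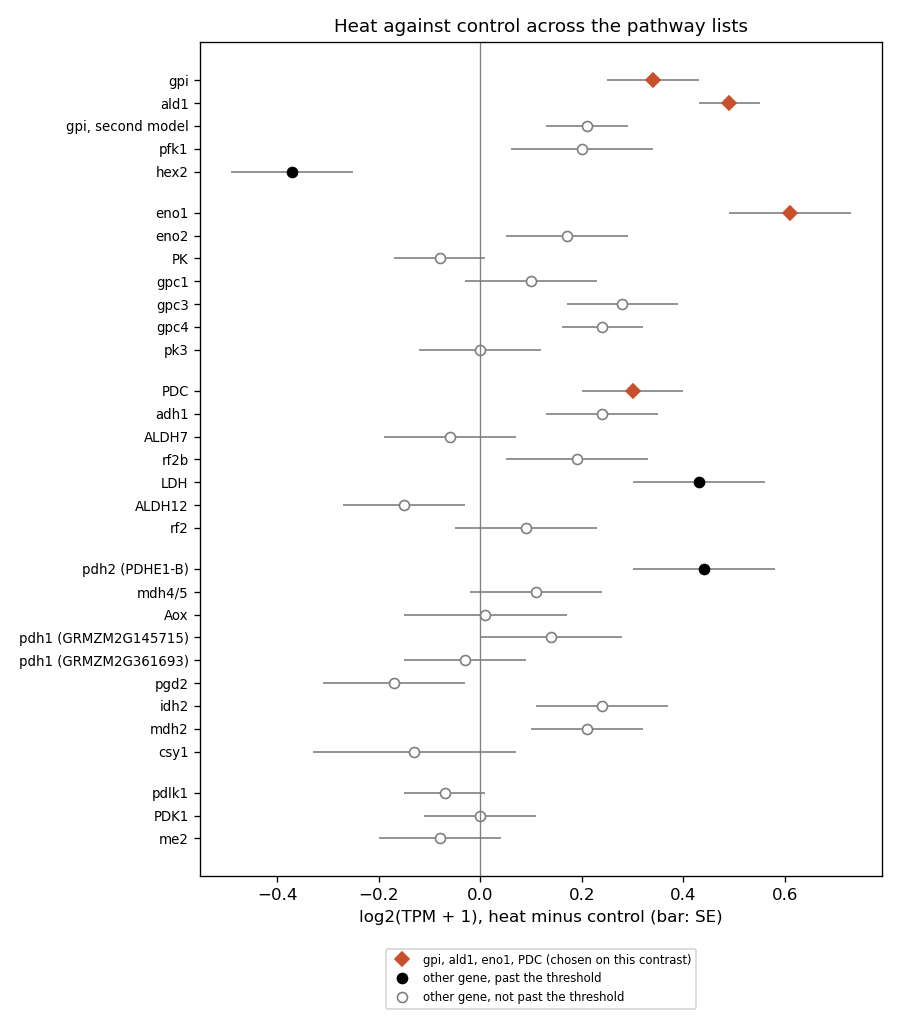
Difference between heat and control on the log2(TPM + 1) scale (horizontal bar, SE) for gpi, ald1, eno1 and PDC (diamonds, chosen on this contrast) and for the 27 other tested genes of the lists (filled circles, past the threshold; open circles, not). The groups of genes run from entry and upper glycolysis at the top to the phosphoenolpyruvate branch at the bottom, with LDH and PDHE1-B called higher and hex2 called lower.

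Genes with the most similar pattern were sought among the 410 other named genes of at least 5 TPM, by the Pearson coefficient of log2(TPM + 1) over the 6 libraries. These coefficients mix the difference between the groups with the spread within them and are descriptions. At 0.95 or above lay 20 of the 410 genes for eno1, 12 for PDC and 6 for gpi. The nearest to eno1 was gpc4, the glyceraldehyde 3-phosphate dehydrogenase gene described above (0.992), followed by LIM7 (GRMZM2G134752; 0.990) and an actin gene (GRMZM2G126190; 0.986), and all 3 were highest in heat replicate 2. The nearest to ald1 were KAPP (GRMZM2G042627; 0.998), TIFY24 (GRMZM2G126507; 0.997) and gar1 (GRMZM2G061695; 0.994), with 38 genes at 0.95 or above. The nearest to PDC were mgs2 (GRMZM2G080056; 0.988), tub4 (GRMZM2G066191; 0.982) and magi29945 (GRMZM2G040968; 0.981), and the nearest to gpi were CNR5 (GRMZM5G892035; 0.975), sam2 (GRMZM2G154397; 0.974) and RELK3 (GRMZM2G550865; 0.971). The sets of 3 shared no gene between the 4.

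Within the lanes that both groups shared, heat replicate 3 stands alone against the 3 controls, and its spread is assumed to be that of the controls. There the log2 difference was 0.61 (SE 0.11) for eno1, 0.46 (SE 0.09) for ald1, 0.22 (SE 0.15) for PDC and 0.16 (SE 0.11) for gpi. The other lanes held heat libraries alone, so a fit with the lane as a covariate gives these same differences. That fit had an SE of 0.18 for eno1, 0.09 for ald1, 0.15 for PDC and 0.11 for gpi. Its median SE over all tested genes was 0.18, against 0.126 without the covariate. With the lane as a covariate, 5.05% of all tested genes were called higher after heat. All 4 differences were above 0 under each alternative setting. The groups' lack of overlap makes this certain for the removal of a library and for the lane covariate. The range of settings was 0.45 to 0.76 for eno1, 0.42 to 0.52 for ald1, 0.22 to 0.35 for PDC and 0.15 to 0.42 for gpi.

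**Figure D5:**
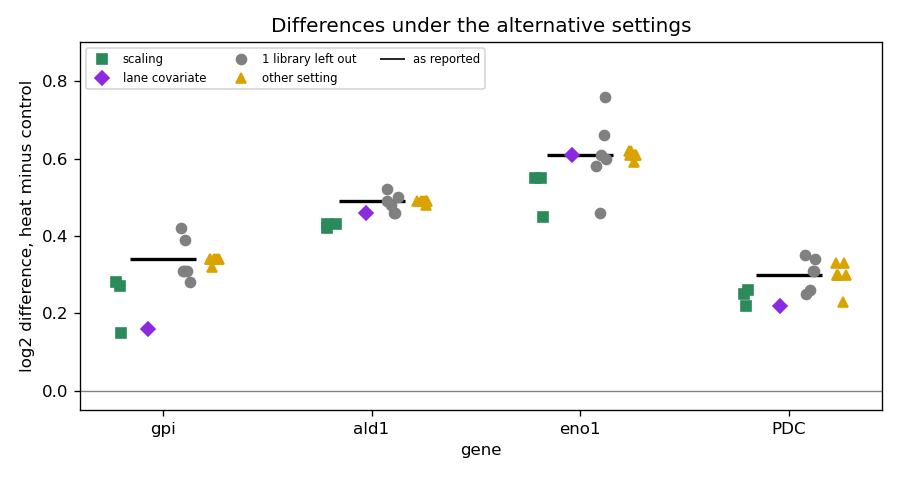
Log2 difference of gpi, ald1, eno1 and PDC between heat and control as reported (black line) and under other scalings, with the lane as a covariate, with 1 library left out and under other settings. The values of gpi reach down to 0.15, those of ald1 stay between 0.42 and 0.52, and those of eno1 run from 0.45 to 0.76.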

How the data were processed

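RNA sequencing libraries of 3 heat and 3 control pollen samples were used. The authors deposited TPM. The submitters' processing notes name STAR 2.5.2a and featureCounts, with Trimmomatic 0.35, FastQC and DESeq2, on build B73 RefGen_v3, but give no role for them. From these values limma 3.58.1 in R 4.3.3 compared heat with control on log2(TPM + 1) with a variance trend, two-sided, with Benjamini-Hochberg adjustment over all 8615 genes of at least 1 TPM in at least 3 of 6 libraries, at a threshold of 0.05. Differences on this scale understate changes of low genes. Whole reads and lengths were recovered for all 24654 gene models above 0, within 0.0001 reads; a common divisor may remain in low genes. Both steps were tested on simulated data. Names came from a RefSeq list of assembly Zm-B73-REFERENCE-NAM-5.0, which matched 19060 gene models; 9.47% of tested genes had a gene name.

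The genes and lists were chosen with earlier results of these data known. Named genes were, per list, up to 4 called genes in each direction and the 2 most abundant, and for each of the 4 genes the 3 of most similar pattern. Alternatives were pseudocounts of 0.1 and 5, no filter, 5 TPM in 3 libraries, 3 scalings, the lane, a replicate block, no variance trend, limma-voom on recovered reads and the removal of each library. Replicate numbers were not taken to pair the samples. Counting errors cover read sampling only.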

Additional observations from a re-analysis of the deposited data

How the results depend on the processing

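Over all tested genes 1123 were higher and 616 lower after heat. The higher numbered 742 with no filter and 435 with the lane as a covariate. The lower numbered 342 with a filter of 5 TPM, 953 after quantile normalization and 219 with the lane. With single libraries left out the higher ran from 813 to 1138 and the lower from 374 (without control replicate 1) to 682; without control replicate 3 the lower were 391. Median ratios gave 937 higher and 786 lower, and scaling without the 100 most abundant genes 904 and 814, against 871 higher after quantile normalization. Of the 27 other pathway genes 2 were higher and 1 lower in the limma test. Of these the higher numbered 1 with median ratios, without the 100 most abundant genes and after quantile normalization, and 0 with no filter and with the lane, where 3 had an unadjusted p below 0.05. The lower numbered 2 after quantile normalization and 0 with a pseudocount of 0.1, no filter, the lane or no variance trend. With single libraries left out the higher ran from 0 (without control replicate 1 or 3 or heat replicate 2) to 4 (without heat replicate 1) and the lower from 0 (without control replicate 1 or 3 or heat replicate 2 or 3) to 1; the causes were not tested. Limma-voom called 3 higher and 1 lower.

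For gpi the log2 difference of 0.34 was 0.15 after quantile normalization and 0.16 with the lane as a covariate. The latter is the same estimate as heat replicate 3 alone against the controls, not a separate one. For ald1 it was 0.43 with median ratios, 0.42 without the 100 most abundant genes and 0.43 after quantile normalization. For PDC it was 0.22 with the lane, again the same estimate as heat replicate 3 alone. With single libraries left out it ran from 0.46 to 0.76 for eno1 (highest without heat replicate 1, lowest without heat replicate 2), 0.46 to 0.52 for ald1, 0.25 to 0.35 for PDC and 0.28 to 0.42 for gpi. Same-numbered libraries had deviations that correlated by 0.119, 0.130 and -0.05 over genes, so the numbers were not taken to pair the samples; 2 of 6 libraries correlated best with their own number. A fit with the replicate number as a block gave 1118 higher and 667 lower genes. A library held 49 to 84 reads of LDH and 46 to 87 reads of PDHE1-B; the part of depth in the loss of their calls was not tested.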
